A study of Homo sapiens with 6 samples.

Results

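The 10 genes described here encode the SMAD proteins SMAD1 to SMAD7 and 3 of their negative regulators, the ubiquitin ligases SMURF1 and SMURF2 and the corepressor SKIL. They were taken by symbol from a count table that lists 20020 genes, and all 10 were found and passed the filter on low counts. Polyadenylated RNA was sequenced from 786-O, an established human clear cell renal carcinoma cell line, with 3 control samples labelled puro and 3 labelled shIGF2BP2, which carry a short hairpin RNA (shRNA) against IGF2BP2. What puro stands for is not in the labels, which give no other allele or agent and do not state separate cultures, clones or pools. The spread behind each p-value is therefore that of these samples alone and may be technical. The IGF2BP2 protein binds mRNA that carries the modification N6-methyladenosine, and the title of the series names a TGF-beta and SMAD axis mediated by that modification.

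The table holds 3 puro columns and 6 shIGF2BP2 columns. The last number of a column name was read as the replicate. The shIGF2BP2 names carry another number before it, 2 or 3, which no label explains, so whether it names a hairpin, a culture or a sample is not known. The columns are called set 2 and set 3 here, with 3 columns each. Each set was compared with puro and the sets with each other. In a further comparison the columns of both sets with the same last number were summed, so that each of the 3 shIGF2BP2 samples entered once; if the other number marks different hairpins or cultures, each such sum pools them. Set 2 and set 3 were compared with the same puro columns, so their changes are not independent of each other.

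Ligands of the TGF-beta, activin and BMP families bind pairs of serine/threonine kinase receptors, which phosphorylate the receptor-activated SMADs. SMAD2 and SMAD3 carry TGF-beta and activin signals, SMAD1 and SMAD5 carry BMP signals, and both kinds join SMAD4, the common mediator, to act on genes in the nucleus. SMAD6 and SMAD7, the inhibitory SMADs, block the receptors and the activated SMADs. SMURF1 and SMURF2 are HECT-type ubiquitin ligases that mark SMADs and receptors for degradation, and SKIL (SnoN) represses SMAD target genes. SMAD6, SMAD7 and SKIL are known as targets of the signals that they limit. In epithelial tumours TGF-beta signalling is known both for growth arrest and for the epithelial-mesenchymal transition.

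Promoters of the inhibitory SMAD genes are shown because both genes fell in set 2 and in set 3. Each is a RefSeq window (GRCh38.p14) from 250 bases before to 50 bases after an annotated start site, printed in the direction of transcription. The SMAD6 window is chr15:66701986-66702285 on the plus strand, and the SMAD7 window is the most upstream of 3, chr18:48950916-48951215 on the minus strand. Capitals mark GTCTAGAC, a palindromic SMAD-binding word.
SMAD6: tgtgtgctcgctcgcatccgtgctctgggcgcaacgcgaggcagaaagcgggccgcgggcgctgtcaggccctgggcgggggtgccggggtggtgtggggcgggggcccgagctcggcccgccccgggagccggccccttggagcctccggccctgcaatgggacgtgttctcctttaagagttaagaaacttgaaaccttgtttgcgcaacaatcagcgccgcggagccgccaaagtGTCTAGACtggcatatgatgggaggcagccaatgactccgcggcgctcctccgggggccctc
SMAD7: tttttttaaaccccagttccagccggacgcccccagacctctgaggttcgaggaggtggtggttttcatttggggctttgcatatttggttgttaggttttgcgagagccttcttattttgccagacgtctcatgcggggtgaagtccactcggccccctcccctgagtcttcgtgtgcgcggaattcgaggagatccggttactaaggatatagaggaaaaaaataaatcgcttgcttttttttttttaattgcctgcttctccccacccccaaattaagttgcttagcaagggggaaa
All 10 genes matched the RefSeq table, with 21 windows in all. GTCTAGAC was found, of these 21, in the SMAD6 window alone, at position -12 from the start site, and in 71 of all 35116 windows (0.202%). CAGACA, the CAGA box word, searched on both strands, occurs in 16.9% of windows, among them the SMURF2 window and 1 of 5 SMAD3 windows. GGCGCC, a GC-rich palindrome that SMAD1 and SMAD5 bind, occurs in 19.2% of windows, including 2 of 5 SMAD1, 2 of 2 SMAD2 and 1 of 5 SMAD3 windows and the SMAD5, SMAD4 and SKIL windows. None of these words is in the SMAD7 and SMURF1 windows. Bases outside the windows were not searched, and in GENCODE the SMAD7 gene begins upstream of its windows, at chr18:48952052. A match is only a match of letters.

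The targeted gene was lower in every shIGF2BP2 column. IGF2BP2 read 74.8, 76.5 and 79.0 CPM in puro, 25.2, 23.5 and 23.1 in set 2 and 34.5, 31.1 and 35.4 in set 3, where CPM is the count scaled by TMM factors so that libraries of different depth compare. Set 2 kept 31.2% of the puro level and set 3 kept 43.9%. Across tested genes, log2 CPM correlated at 0.990 to 0.993 between columns of 1 arm and at 0.963 to 0.970 between arms, set 2 and set 3 included. Column totals ran from 33821216 to 47470019 counts. Of 10 renal and clear cell carcinoma markers, 9 reached 1 CPM in every column, the exception being CA9. Their summed level was 5979 to 6288 CPM in the puro columns, 7113 to 7251 in set 2 and 7092 to 7564 in set 3. Most of that was VIM, at a mean of 3946 CPM in puro, 5064 in set 2 and 5271 in set 3. KRT8, KRT18 and PAX2 also had higher means than puro in both sets. PAX8 (291 CPM in puro, 253 in set 2 and 129 in set 3), CA12, CDH6, EPAS1 and CA9 had lower ones. CDH2 was lower in set 2 and higher in set 3. Summed markers of leukocytes (5 genes, none at 1 CPM) stayed between 0.128 and 0.628 CPM. Those of endothelium (4 genes) stayed between 0.539 and 2.24 CPM. Of these, KDR alone passed 1 CPM, at 1.48 and 1.51 in set 2 replicates 2 and 3. Fibroblast markers (5 genes) summed to 6.68 to 8.11 CPM in the puro columns, 3.27 to 3.9999 in set 2 and 4.51 to 6.28 in set 3. Most of that was COL1A1, whereas PDGFRA, DCN and COL1A2 were at or near 0. In bulk RNA, fewer cells with a transcript and less of it per cell cannot be told apart.

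Among the 10 genes, SMAD6 fell furthest in both sets, SMAD7, SMAD3 and SMAD2 also fell in both, and SMURF2 was the gene that rose. SMAD1 separated the sets, falling in set 2 but not passing the test in set 3. In set 2, 7 of the 10 fell (SMAD1 to SMAD7) and 1 rose, by edgeR's quasi-likelihood test at an FDR (false discovery rate) of 0.05. The background was high, since 59.9% of the 13346 genes tested were called, 30.0% of them higher and 29.9% lower than puro. In set 3, 5 fell (SMAD2, SMAD3, SMAD6, SMAD7 and SMURF1) and 1 rose, against a background of 55.6% called, 28.0% higher and 27.6% lower. The median log2 fold change of the 10 was -0.24 in set 2 and -0.11 in set 3, beside medians over all genes of 0.0060 and 0.0040. Between the sets, 5 of the 10 were higher in set 3 and 0 were lower, where 60.7% of all genes were called, 29.8% higher and 30.8% lower. With the sets summed, 5 fell and 1 rose, against 58.0% of 13518 genes called, 28.8% higher and 29.2% lower. With the first number read as naming the sample, 0 of the 10 were called, where only 1285 of all 13192 genes tested were called. The all-gene split depended on scaling: 50.04% of the set 2 calls were higher with TMM factors and 60.8% with library totals alone, and 49.2% against 36.3% between the sets.

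**Figure D1:**
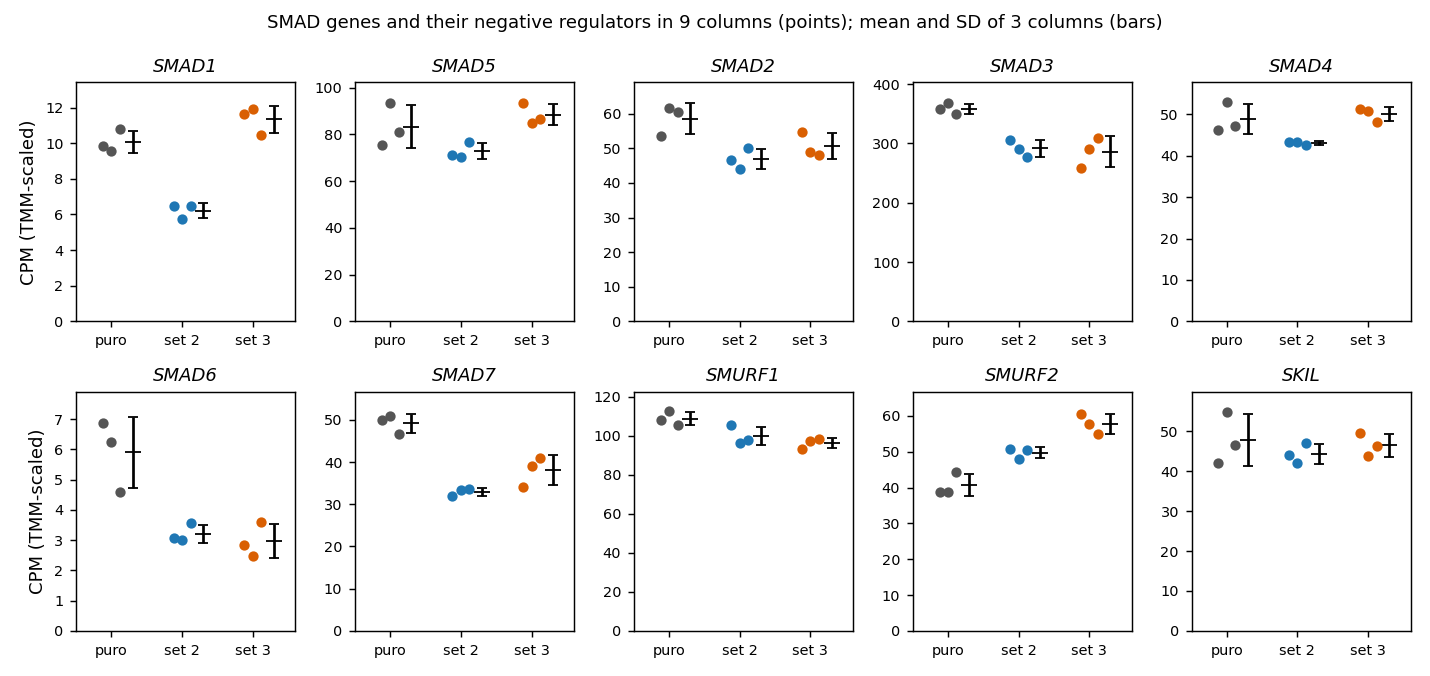
CPM (linear axis from 0) of each gene in the 3 puro, 3 set 2 and 3 set 3 columns, as points, with the mean and SD over 3 columns as bars. SMAD3, SMAD6 and SMAD7 lie below puro in every set 2 and set 3 column, SMURF2 lies above it in every one, and SMAD1 is low in set 2 alone.

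**Figure D2:**
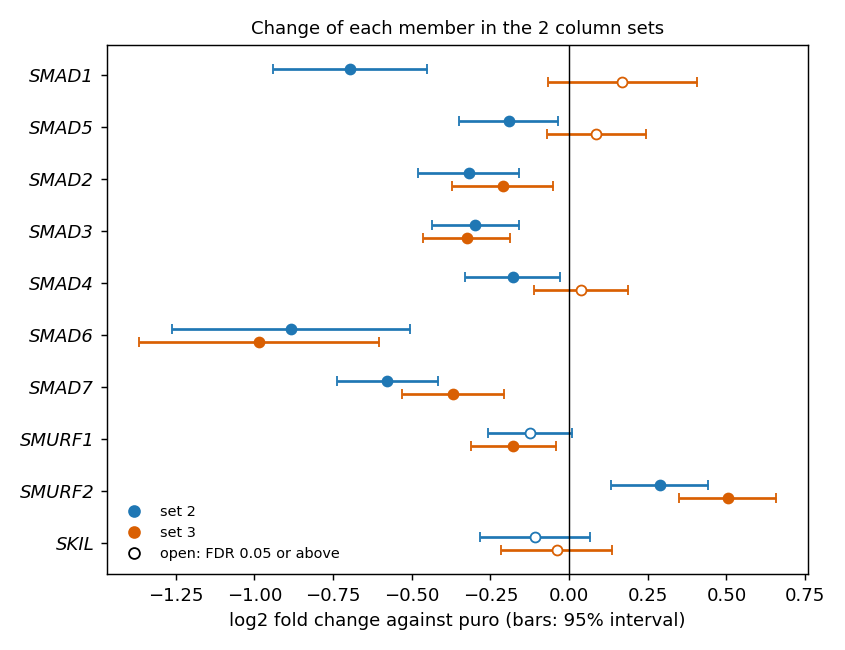
Log2 fold change against puro of each gene in set 2 and set 3 with its 95% interval from the edgeR fit, filled where FDR was under 0.05. SMAD6 lies lowest in both sets at -0.88 and -0.99, and the SMAD1 values, -0.70 and 0.17, lie furthest apart.

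Of the BMP branch of the receptor-activated SMADs, SMAD1 differed clearly between the sets and SMAD5 less firmly. SMAD9, also of this branch but not among the 10, was not called between the sets. Its difference was 0.18 (SE 0.28, edgeR adjusted p = 0.612), at a mean of 2.02 CPM in puro. SMAD1 (chr4:145481194-145558079, plus strand, GRCh38, GENCODE) read 9.84, 9.59 and 10.8 CPM in puro, 6.46, 5.73 and 6.47 in set 2 and 11.6, 11.9 and 10.5 in set 3. All set 2 columns lay below every puro and set 3 column, while puro and set 3 overlapped. Its level in set 2 was 61.7% of puro (log2 fold change -0.70, SE 0.12, edgeR adjusted p = 1.46e-05). In set 3 the log2 fold change was 0.17, with a 95% interval of -0.07 to 0.41 (edgeR adjusted p = 0.219). The difference between the sets, 0.87 (SE 0.12), passed the same test (edgeR adjusted p = 4.36e-07). With the sets summed SMAD1 stood at -0.22 (edgeR adjusted p = 0.0601). On log2(FPKM + 1), which understates changes of low genes, the set 2 value was -0.42 and the difference between the sets 0.53, and both still passed.

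SMAD5 (chr5:136132845-136188747, plus strand) read 75.5, 93.4 and 81.003 CPM in puro, 71.4, 70.4 and 76.98 in set 2 and 93.5, 85.1 and 86.8 in set 3. Set 2 lay below every set 3 column, and puro, whose replicate 2 was the highest, overlapped both. The fall in set 2 was small (log2 fold change -0.19, SE 0.08, edgeR adjusted p = 0.0329). It failed the edgeR test on leaving out puro replicate 2 (-0.10, adjusted p = 0.270) or set 2 replicate 1 (0.0910) or 2 (0.120), and its adjusted p ran from 0.00675 to 0.380 over 18 alternatives. Set 3 stood at 0.09 (95% interval -0.07 to 0.24, edgeR adjusted p = 0.350). The sets differed by 0.28 (SE 0.08, edgeR adjusted p = 0.00262), in the same direction as for SMAD1. That difference did not pass with library totals alone (0.15, adjusted p = 0.0826) or on log2 FPKM, with adjusted p between 0.000523 and 0.133.

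The TGF-beta and activin branch was lower in both sets. SMAD3 (chr15:67063763-67195195, plus strand) read 357, 368 and 350.0 CPM in puro, 306, 291 and 277 in set 2 and 258, 290 and 310 in set 3 (to 3 digits). Every shIGF2BP2 column lay below every puro column, and the sets overlapped. The log2 fold change was -0.30 (SE 0.07, edgeR adjusted p = 0.000448) in set 2 and -0.33 (SE 0.07, edgeR adjusted p = 0.000192) in set 3. The difference between the sets was -0.03, with a 95% interval of -0.17 to 0.11. The calls in both sets held in all 18 alternatives run on the sets, with -0.20 in set 2 on log2(FPKM + 1).

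SMAD2 (chr18:47808957-47931146, minus strand) read 53.5, 61.7 and 60.5 CPM in puro, 46.7, 44.1 and 50.1 in set 2 and 54.9, 49.0 and 48.0 in set 3. Set 2 lay below every puro column, and set 3 overlapped both other arms. It fell by 0.32 on the log2 scale in set 2 (SE 0.08, edgeR adjusted p = 0.000982) and by 0.21 in set 3 (SE 0.08, edgeR adjusted p = 0.0240). On deposited FPKM the set 2 value was -0.13 with a pseudocount of 1 and did not pass, within an adjusted p range of 0.000194 to 0.131. The set 3 call was lost when puro replicate 2 (edgeR adjusted p = 0.102) or 3 (0.0939) or set 3 replicate 2 (0.0914) or 3 (0.0979) was left out, and its adjusted p ran from 0.00330 to 0.113. The difference between the sets was 0.11, with a 95% interval of -0.05 to 0.27.

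SMAD4 (chr18:51028394-51085045, plus strand), the partner that both branches share, changed little. It read 46.1, 52.9 and 47.2 CPM in puro, 43.3, 43.3 and 42.6 in set 2 and 51.3, 50.8 and 48.0 in set 3. All set 2 columns lay below every other column, and set 3 lay within the puro range. Its log2 fold change in set 2 was -0.18 (SE 0.07, edgeR adjusted p = 0.0381), a call that ended in 11 of 18 alternatives. Among those were the fits leaving out puro replicate 2 (-0.12, edgeR adjusted p = 0.208) and those leaving out set 2 replicate 1 (0.0756), 2 (0.0816) or 3 (0.0974), and the adjusted p ran from 0.0215 to 0.442. In set 3 it stood at 0.04 (95% interval -0.11 to 0.19). The sets differed by 0.22 (SE 0.07, edgeR adjusted p = 0.0123). That difference did not pass in 4 of 18 alternatives, with 0.09 by library totals alone (adjusted p = 0.292) and adjusted p between 0.00477 and 0.363. In the annotation SMAD4 shares 967 exonic bases with AC091551.1 on the same strand, a gene that the count table does not list.

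Both inhibitory SMADs fell. SMAD6 (chr15:66702228-66782848, plus strand) was the least abundant of the 10 by counts, with 251, 209 and 155 counts in puro, 126, 140 and 137 in set 2 and 108, 99 and 167 in set 3. Scaled, these were 6.88, 6.24 and 4.58 CPM, then 3.07, 2.99 and 3.56, then 2.83, 2.48 and 3.60. Every shIGF2BP2 column lay below every puro column, with puro replicate 3 the nearest. Set 2 stood at 54.2% of puro (log2 fold change -0.88, SE 0.18, edgeR adjusted p = 0.000177) and set 3 at 50.5% (-0.99, SE 0.19, edgeR adjusted p = 5.72e-05). On log2(FPKM + 1) the values were -0.41 and -0.52 and still passed. The interval of the difference between the sets, -0.50 to 0.29 around -0.10, was wide at these counts.

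SMAD7 (chr18:48919853-48952052, minus strand) read 49.99, 50.96 and 46.56 CPM in puro, 31.9, 33.3 and 33.6 in set 2 and 34.1, 39.2 and 40.9 in set 3. None of the 3 arms overlapped, with set 2 lowest and puro highest. SMAD7 fell to 67.0% of puro in set 2 (log2 fold change -0.58, SE 0.08, edgeR adjusted p = 4.82e-07) and to 77.4% in set 3 (-0.37, SE 0.08, edgeR adjusted p = 0.000241). The SMAD6 and SMAD7 calls held in all 18 alternatives run on each set. The smaller fall of SMAD7 in set 3, a difference of 0.21 (SE 0.08, edgeR adjusted p = 0.0244), did not pass in 9 of 18 alternatives. Those included the fits without set 2 replicate 1 (0.0858) or 2 (0.0517) and without set 3 replicate 2 (0.0836) or 3 (0.132), within a range of 0.00173 to 0.411.

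SMURF2 rose in both sets, while SMURF1 was slightly lower and passed the test in set 3. SMURF2 (chr17:64542295-64662068, minus strand) read 38.9, 38.9 and 44.4 CPM in puro, 50.6, 47.9 and 50.5 in set 2 and 60.6, 57.6 and 54.9 in set 3. Here too none of the arms overlapped, with puro lowest and set 3 highest. SMURF2 rose to 122% of puro in set 2 (log2 fold change 0.29, SE 0.08, edgeR adjusted p = 0.00173) and to 142% in set 3 (0.50, SE 0.07, edgeR adjusted p = 2.18e-06), in all 18 alternatives run on the sets. The further rise in set 3, 0.22 (SE 0.07, edgeR adjusted p = 0.0135), did not pass in 5 of them, among these the fit without set 2 replicate 2 (0.0668), within a range of 0.00622 to 0.311.

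SMURF1 (chr7:99027438-99144100, minus strand) read 108, 113 and 106 CPM in puro, 105, 96.5 and 97.7 in set 2 and 93.3, 97.2 and 98.3 in set 3. Set 3 lay below every puro column, and so did set 2, though its highest column came close to the lowest puro column. Its log2 fold change was -0.12 in set 2 (95% interval -0.26 to 0.01, edgeR adjusted p = 0.104) and -0.18 in set 3 (SE 0.07, edgeR adjusted p = 0.0239). The set 3 call ended without puro replicate 2 (0.0836) and without set 3 replicate 2 (0.0520), within a range of 0.0104 to 0.0836. The difference between the sets was -0.05, with a 95% interval of -0.19 to 0.08. With the sets summed SMURF1 fell by 0.16 (SE 0.05, edgeR adjusted p = 0.0103), a call that ended without shIGF2BP2 replicate 2 (0.0584), within a range of 0.00383 to 0.410. SMURF1 shares 735 exonic bases with TRRAP and SMURF2 shares 167 with CEP95, each on the opposite strand. SMAD1, SMAD3 and SMAD5 share 376, 182 and 610 exonic bases with antisense genes. The strand setting of the counting is not given in the sources used here, so reads of such partners cannot be told apart.

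SKIL (chr3:170357678-170396835, plus strand) showed no call in any of these comparisons. It read 42.1, 54.8 and 46.7 CPM in puro, 44.1, 42.0 and 47.02 in set 2 and 49.5, 43.8 and 46.3 in set 3, and all arms overlapped. The 95% interval of its log2 fold change was -0.28 to 0.07 in set 2 and -0.21 to 0.14 in set 3. Without puro replicate 1, the lowest puro column, the summed comparison called it at -0.17 (edgeR adjusted p = 0.0265), the lowest of values reaching 0.796.

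With the columns of both sets summed to 3 shIGF2BP2 samples, SMAD6 stood at -0.94 (SE 0.16, edgeR adjusted p = 4.67e-05) and SMAD7 at -0.48 (SE 0.07, edgeR adjusted p = 3.21e-06) on the log2 scale. SMURF2 stood at 0.39 (SE 0.06, edgeR adjusted p = 3.28e-05). With the first number taken as the sample, the edgeR adjusted p was 0.0607 for SMAD6, 0.0687 for SMAD7 and 0.102 for SMURF2, so these calls rest on the reading of the names.

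Levels of different genes were compared as deposited FPKM, which is per length. In puro SMAD3 was the highest of the 10 at 44.9 ± 1.37 FPKM (SD, n = 3), at or above 93.0% of listed genes. SMURF1 followed at 18.6 ± 0.699, SMAD7 at 14.0 ± 0.731 and SMAD5 at 10.2 ± 1.18 FPKM. SMURF2 at 6.42 ± 0.471 and SKIL at 6.19 ± 0.864 FPKM overlapped in range. SMAD4 stood at 4.62 ± 0.369 and SMAD1 at 2.94 ± 0.170 FPKM. SMAD2 at 1.63 ± 0.127 and SMAD6 at 1.52 ± 0.309 FPKM came last and also overlapped. The place of SMAD2 depends on the length used. Counts divided by FPKM gave it 35403 bases, where the other 9 had 3374 to 10385, so its low FPKM does not mean few reads. SMAD3 took 75.2 ± 1.27% (SD, n = 3) of the summed FPKM of SMAD1, SMAD2, SMAD3 and SMAD5 in puro. It took 75.1 ± 1.71% in set 2 and 69.6 ± 2.92% in set 3. The share of SMAD1 and SMAD5 was 20.8, 23.0 and 22.3% in the puro columns, 21.2, 21.5 and 23.9% in set 2, and higher, without overlap, at 30.5, 27.0 and 25.5% in set 3. The sum leaves out SMAD9, at 0.358 FPKM in puro, and its SMAD2 part depends on the length used. No test was made of these shares.

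**Figure D3:**
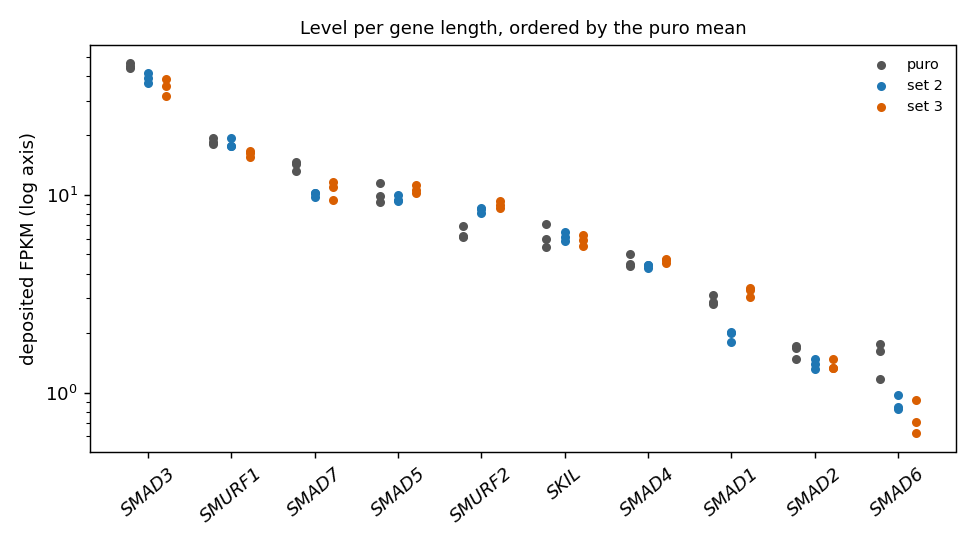
Deposited FPKM (log axis) of the 10 genes in each of the 9 columns, ordered by the puro mean. SMAD3 stands apart at the top at 44.9 FPKM in puro, and SMAD2 and SMAD6 come last at 1.63 and 1.52 FPKM.

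Genes around the SMADs moved in both directions, in lists taken by role. Their counts stand beside the all-gene background of 30.0% higher and 29.9% lower in set 2 and 28.0% higher and 27.6% lower in set 3, and many are near it. Among 12 tested receptors, 2 were higher and 7 lower in set 2, and 5 higher and 4 lower in set 3. TGFBR2, the type II TGF-beta receptor, stood at -0.48 and -1.30 on the log2 scale in set 2 and set 3 (edgeR adjusted p = 4.39e-07 and 3.33e-15). BMPR2, the type II BMP receptor, stood at -0.50 and -0.36. The coreceptors ENG (0.92 and 0.76) and TGFBR3 (0.93 and 0.66) rose from low levels, near 2 CPM in puro. Of 11 ligands, 5 rose and 4 fell in set 2 and 3 rose and 4 fell in set 3. TGFB2 rose by 0.92 and 1.82, and INHBA, the activin A subunit, by 0.89 and 1.04. BMP2 changed by -0.78 and -0.73, and GDF15 changed by -1.84 and -2.91 from 2.06 CPM in puro.

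Of 26 tested genes known as SMAD2 and SMAD3 targets, 7 were higher and 17 lower in set 2, with a median log2 fold change of -0.47; of all genes, 30.0% were higher and 29.9% lower. In set 3, 6 were higher and 13 lower, with a median of -0.17, beside 28.0% and 27.6% of all genes. BMF, a pro-apoptotic BH3-only protein (-2.33 and -3.42), and PDGFB, a growth factor chain (-1.98 and -2.25), had the lowest mean of both sets. CCN2, a matricellular protein (1.11 and 2.496), and HMGA2, a chromatin protein (1.66 and 1.32), had the highest. Of 11 SMAD1 and SMAD5 targets, 3 were higher and 6 lower in set 2, and 5 higher and 3 lower in set 3. NOG, a secreted BMP antagonist, rose by 1.31 and 0.56, and BMPER, another BMP-binding protein, by 1.86 and 1.56. HEY1, a transcriptional repressor, changed by -1.02 and -1.63, and ID4, an inhibitor of DNA binding, by -1.77 and -1.92 from 0.708 CPM in puro.

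Among 15 other ubiquitin ligases and deubiquitinases of the SMADs, 3 rose and 6 fell in set 2 and 3 rose and 5 fell in set 3, where 59.9% and 55.6% of all genes were called in either direction. OTUB1, which protects active SMAD2 and SMAD3 from ubiquitin, rose by 0.81 and 1.06, and the ligase WWP2, of the same HECT class as the SMURFs, by 0.54 and 0.82. The deubiquitinases USP9X, which acts on SMAD4, and USP11 changed by -0.67 and -0.26 and by -0.85 and -0.27. Of 12 other corepressors and phosphatases, 3 rose and 3 fell in set 2 and 5 rose and 2 fell in set 3. SKI, the close relative of SKIL, rose by 1.19 and 0.63 (edgeR adjusted p = 3.26e-12 and 5.40e-07), where SKIL was not called. PPM1A, a phosphatase of SMAD2 and SMAD3, rose by 0.52 and 0.19, and the phosphatase CTDSP2 changed by -0.42 and -0.88. Of 16 tested partners, coactivators and anchors, 5 rose and 6 fell in set 2 and 1 rose and 5 fell in set 3. They included the nuclear import factor IPO7 (-1.11 and -0.41) and the transcription factor RUNX2 (-0.19 and -1.04). Apart from SMAD9, genes named from the lists so far were picked because they passed the edgeR test in both sets in the same direction.

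**Figure D4:**
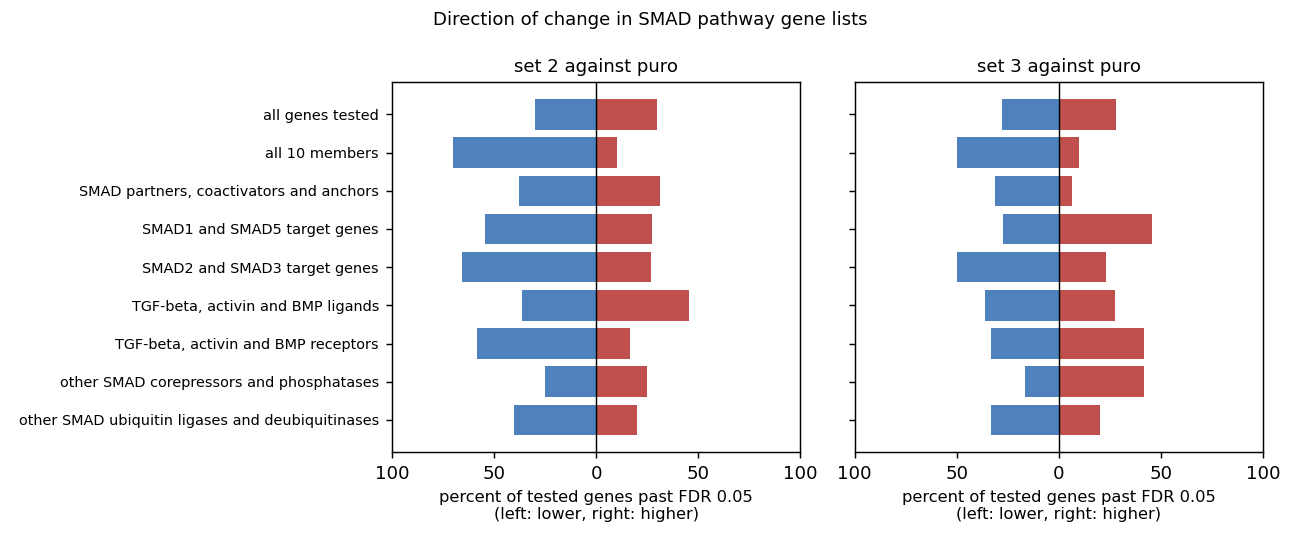
Percent of tested genes past FDR 0.05 in each list, lower to the left and higher to the right of 0, for set 2 and set 3 against puro. In set 2, 17 of 26 SMAD2 and SMAD3 targets and 7 of the 10 genes described here were lower, beside 29.9% of all genes.

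Among 99 genes of these lists, the one whose log2 CPM followed a member most closely over the 9 columns was SNAI2, a transcription factor of the epithelial-mesenchymal transition, for SMAD7 (Pearson's r = 0.976). It was the ligand gene TGFB2 for SMURF2 (r = 0.953), the scaffold gene NEDD9 for SMAD3 (r = 0.915), BMF for SMAD6 (r = 0.915) and USP9X for SMAD2 (r = 0.895). These 9 columns form 3 arms and share their libraries and scaling, so the values describe likeness only. SNAI2 was called against puro in set 2 (-0.31, edgeR adjusted p = 0.00538) but not in set 3 (-0.18, edgeR adjusted p = 0.093).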

How the data were processed

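Per the labels' protocols, RNAiso Plus was used for RNA and a TruSeq kit for libraries. The submitters' processing notes name fastp 0.23.2, STAR 2.7.10a, featureCounts and DESeq2, with hg38 as the build. For the annotation release, the strand setting and multimapping reads, the choice is not given in the sources used here. The deposited counts are whole numbers of reads for each gene symbol, in 9 columns. The deposited FPKM table rescales the same counts by gene length and library total, and for each of the 10 genes the length implied was the same in every column.

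Counts were filtered with filterByExpr, scaled with TMM factors and tested with edgeR 4.0.16 (glmQLFit and glmQLFTest, R 4.3.3) in 1 fit of all 9 columns with 3 arms. The comparison of samples used 3 puro and 3 summed shIGF2BP2 samples, whose totals were 78679703 to 85857597 counts. P-values were adjusted by Benjamini-Hochberg over all genes tested, with FDR 0.05 as the threshold. The F statistic of each gene gave the standard error and 95% interval. The fit was tested on simulated data with known changes. Log2 CPM for correlations used a prior count of 2.

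The genes, the lists and the tests were chosen with earlier results of these data known. Named genes were the 10 members, IGF2BP2, and from each list up to 2 genes with the highest and up to 2 with the lowest mean log2 fold change among those called in both sets in the same direction. For members called in both sets, the list gene with the highest correlation was named. SMAD9 was named as a further SMAD of the BMP branch. PMEPA1, TGIF1, SMAD9 and BAMBI each stand in 2 lists. Alternatives covered other scalings, filters, DESeq2 1.42.0, limma-voom and log2 FPKM with limma 3.58.1, a replicate block, FDR 0.01, the 2 arms compared alone and each library left out. The other reading of the column names was run for the summed comparison alone.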

Additional observations from a re-analysis of the deposited data

Results flagged for a closer look

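For 5 of the 10 genes the change against puro differed between the sets by edgeR's test of the difference itself. The same test called 60.7% of all 13346 genes tested, so this count is not above the background. SMAD1 was higher in set 3 than in set 2 by 0.87 on the log2 scale (edgeR adjusted p = 4.36e-07). SMAD5 was higher by 0.28 (edgeR adjusted p = 0.00262), SMAD4 by 0.22 (0.0123), SMURF2 by 0.22 (0.0135) and SMAD7 by 0.21 (0.0244). All but the SMAD1 difference failed the test with library totals alone and on log2 FPKM, which is likewise scaled by library totals. Less the all-gene median, the differences were 0.30 for SMAD5, 0.24 for SMAD4 and SMURF2 and 0.23 for SMAD7. These values were alike with TMM factors and with library totals alone. A scaling factor shifts all genes by nearly the same amount, so this likeness follows from the subtraction. It is no test of the differences. SMAD1 fell in set 2 and was not called in set 3, whereas SMURF2 rose, and SMAD7 fell, in both. The residual IGF2BP2 level was also higher in set 3, by 0.49 (edgeR adjusted p = 3.19e-06), and its part in these differences was not tested.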

How the results depend on the processing

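Over the 10 genes and 4 comparisons, 720 values were recomputed. Of these 635 kept direction and side of the threshold, 68 lost the call, 4 gained one and 13 changed sign, none of the 13 called either way. Of the 40 results, 17 held in all 18 alternatives. Between the sets, SKIL moved to -0.0555 with library totals and to -0.0482 and -0.0553 on log2 FPKM with pseudocounts of 1 and 0.1, and SMAD2 to -0.0171, -0.0101 and -0.0164. The other sign changes came from leaving out 1 library, with ranges of -0.123 to 0.0687 for SKIL in set 3 and -0.172 to 0.0280 for SKIL summed, -0.0876 to 0.0408 for SMAD3 and -0.271 to 0.0115 for SMAD6 between the sets, and -0.127 to 0.0365 for SMAD5 summed. When the sample was taken from the first number instead, which leaves 2 shIGF2BP2 samples, 1285 genes were called instead of 7842 and 0 of the 10 instead of 6, with edgeR adjusted p values from 0.0607 (SMAD6) to 0.410 (SMURF1) for those 6. On log2 FPKM, with either pseudocount, 5 of the 10 were called in set 2 instead of 8. Between the sets, 2 instead of 5 were called with library totals alone, on log2 FPKM with either pseudocount and at FDR 0.01, and 3 to 5 with 1 library left out, the 3 being without set 2 replicate 2. SMURF1 gained a call between the sets with library totals and on log2 FPKM (adjusted p 0.0236 to 0.0242). Library totals alone moved the all-gene median to 0.104 in set 2 and to -0.15 between the sets; the cause was not tested. With a replicate block, 7538 genes were called in set 2, 6942 in set 3, 7636 between the sets and 7302 in the summed comparison, against 7989, 7425, 8097 and 7842. Deviations of same-numbered columns correlated at -0.103 to 0.0387 between puro and the sets. Between set 2 and set 3 they correlated at -0.0942, 0.00408 and -0.0723. These values were no higher than those of some differently numbered columns. They showed no pairing by number and lend no support to summing the sets by number. Taken around means of 3 columns an arm, they cannot settle whether the samples were paired. SMAD6, at 99 to 251 counts a column, had the widest intervals.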
